A study of Mus musculus with 3 samples.

Results

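The 10 genes described here are Nr4a1, Nr4a2, Nr4a3, Fos, Jun, Junb, Egr1, Egr2, Egr3 and Dusp1. They were taken by symbol from the 23282 gene rows of a transcriptome of mouse CD4 T cells, and each symbol had 1 row. The cells came from spleens and lymph nodes of C57BL/6 mice, and they were activated with 2 µg/ml antibody against CD3 and CD28 and kept for 72 h in 1 of 3 media. Complete medium (CM) was RPMI with fetal bovine serum. Dialyzed medium (DM) was RPMI without amino acids to which dialyzed serum had been added, and DM+Met was DM with 30 µM methionine. All 3 groups shared the antibody stimulation and the culture time, and no library came from resting cells or from an early time after stimulation. CM and DM differed in amino acids and in serum, so those components cannot be told apart, and methionine was added at a single concentration. Each medium was 1 sample with 2 numbered files, which were taken as 2 libraries, since the study names 2 independent biological samples for each. The nature of the 2 files is not in the labels, so p-values measure the spread between these files, which may be technical.

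Immediate early genes are transcribed within minutes of a stimulus from factors already present in the cell, and their mRNAs are usually short-lived. In T cells, signals from the antigen receptor reach them through the MAP kinase cascade and through calcium, calcineurin and NFAT. Egr1, Egr2 and Egr3 encode zinc finger transcription factors, Fos, Jun and Junb encode subunits of the AP-1 transcription factor, and Nr4a1, Nr4a2 and Nr4a3 encode orphan nuclear receptors. Dusp1 encodes a phosphatase that inactivates MAP kinases. EGR2, EGR3 and the NR4A receptors are known for restraining activated T cells, in anergy and in exhaustion.

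The libraries held 8504739 to 12377305 reads. Levels are log2 of CPM plus 1, where CPM set each gene's reads against the size of the library, as scaled by the authors. Fold changes are on that scale, and for genes with few reads it makes a change look smaller. Libraries were made from the 3′ ends of transcripts, so a transcript yields about 1 read site whatever its length. Levels of different genes can thus be set side by side, except where another gene overlaps the 3′ end. A count of 0 still allows 3 reads, or a log2 level of 0.323 to 0.469 by library, for counting error only. The row of the ribosomal RNA precursor (Rn45s) took 31.0% to 38.3% of the reads in CM and DM and 15.5% and 20.1% in DM+Met. In bulk RNA, a lower level from fewer cells of a type cannot be told apart from less RNA per cell.

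Promoter sequences were searched because several of these genes are known to be driven through a small set of DNA elements. RefSeq windows of assembly GRCm38.p6, from 250 bases before to 50 bases after each start, were found for 8 of the 10 genes, all but Egr1 and Egr3. The windows below show 5′ to 3′ the sequence upstream of the start, with exon bases left out. Capitals mark TGACG (the core of a cAMP response element, CRE) on either strand, the full CRE TGACGTCA, and the EGR site GCGGGGGCG or its variant GCGTGGGCG on either strand. In the short Egr2 stretch, capitals mark a CArG box, the element bound by serum response factor.
Nr4a1, chr15:101266596-101266845, plus strand: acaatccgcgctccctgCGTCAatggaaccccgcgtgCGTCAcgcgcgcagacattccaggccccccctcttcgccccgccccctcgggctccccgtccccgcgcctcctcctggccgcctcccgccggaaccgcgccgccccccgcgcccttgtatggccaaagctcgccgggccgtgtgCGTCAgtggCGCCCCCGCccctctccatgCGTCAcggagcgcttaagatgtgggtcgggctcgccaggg
Nr4a2, chr2:57124004-57124253, minus strand: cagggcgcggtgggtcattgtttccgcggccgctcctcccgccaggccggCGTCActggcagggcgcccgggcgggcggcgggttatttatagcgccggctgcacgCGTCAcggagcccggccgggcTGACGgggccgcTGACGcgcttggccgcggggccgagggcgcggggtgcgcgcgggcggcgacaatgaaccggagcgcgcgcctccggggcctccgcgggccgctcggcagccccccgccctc
Nr4a3, chr4:48045055-48045152, plus strand: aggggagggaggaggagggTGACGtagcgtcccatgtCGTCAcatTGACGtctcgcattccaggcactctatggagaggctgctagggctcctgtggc
Fos, chr12:85473640-85473889, plus strand: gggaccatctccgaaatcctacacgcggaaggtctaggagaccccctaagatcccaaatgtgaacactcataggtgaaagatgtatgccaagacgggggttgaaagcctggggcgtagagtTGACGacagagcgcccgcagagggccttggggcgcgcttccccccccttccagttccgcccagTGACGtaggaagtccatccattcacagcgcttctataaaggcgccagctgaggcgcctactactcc
Dusp1, chr17:26508520-26508722, minus strand: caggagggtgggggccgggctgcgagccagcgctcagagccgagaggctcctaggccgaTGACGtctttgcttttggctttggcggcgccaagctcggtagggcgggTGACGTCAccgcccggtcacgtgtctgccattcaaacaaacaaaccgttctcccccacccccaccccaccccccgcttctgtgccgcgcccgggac
Jun, chr4:95052223-95052472, minus strand: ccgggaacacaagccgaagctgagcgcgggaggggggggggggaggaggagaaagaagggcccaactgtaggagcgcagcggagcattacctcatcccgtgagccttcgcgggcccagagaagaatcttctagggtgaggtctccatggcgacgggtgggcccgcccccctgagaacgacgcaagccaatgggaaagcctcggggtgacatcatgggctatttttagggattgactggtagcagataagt
Egr2, chr10:67537787-67537816, plus strand: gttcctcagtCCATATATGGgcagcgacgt

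TGACG was found on either strand in 7 of the 8 genes, against 35.3% of 9603 tested genes with a window. The exception was Jun, whose window above has no capitals. Nr4a1, Nr4a2 and Nr4a3 each held 4 matches, of which 3 fall in the printed stretch of Nr4a3. A full TGACGTCA was found in Dusp1, at positions −143 to −136 from the start, against 3.58% of tested genes. It holds a TGACG on each strand, and these overlap. An EGR site was found in Nr4a1, between its last 2 TGACG matches, against 7.31% of tested genes. A CArG box was found in Egr2, which has 5 annotated starts and so more sequence to match, against 1.66% of tested genes. The AP-1 site TGANTCA and the NR4A site AAAGGTCA were found in 0 of the 8, against 6.19% and 1.16%. The NFAT core GGAAAA was found in Egr2 alone, against 24.1%. These are matches of letters in a short window, and binding was not measured.

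All 10 genes were detected in all 6 libraries, with 19 reads (Egr2 in CM library 1) to 2559 reads (Junb in CM library 1). Junb had the highest mean in each medium, at mean log2 levels of 8.26 ± 0.09 (CM), 7.70 ± 0.14 (DM) and 7.17 ± 0.05 (DM+Met) (SD, n = 2 throughout). Its level may include reads of Prdx2, which overlaps its 3′ end on the other strand, since the strand treatment in counting is not given. The order below Junb differed between media. In CM, Jun at 6.71 ± 0.06 and Nr4a1 at 6.67 ± 0.06 came next and overlapped each other, followed by Egr1 at 5.15 ± 0.41 and Nr4a3 at 4.55 ± 0.26. In DM, Nr4a1 at 7.57 ± 0.28 and Egr1 at 7.48 ± 0.46 overlapped each other and Junb, with Nr4a1 above Junb in library 1 and Egr1 above it in library 2, while Jun at 5.10 ± 0.49 overlapped Egr3 and Nr4a3. In DM+Met, Nr4a1 at 6.85 ± 0.05 and Egr1 at 6.80 ± 0.06 overlapped below Junb, and Jun at 5.81 ± 0.06 came next. At the low end, Nr4a2, Egr2 and Fos were at 3.15 or below in CM, and Nr4a2 was lowest in DM at 2.10 ± 0.71 and in DM+Met at 2.42 ± 0.24.

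**Figure D1:**
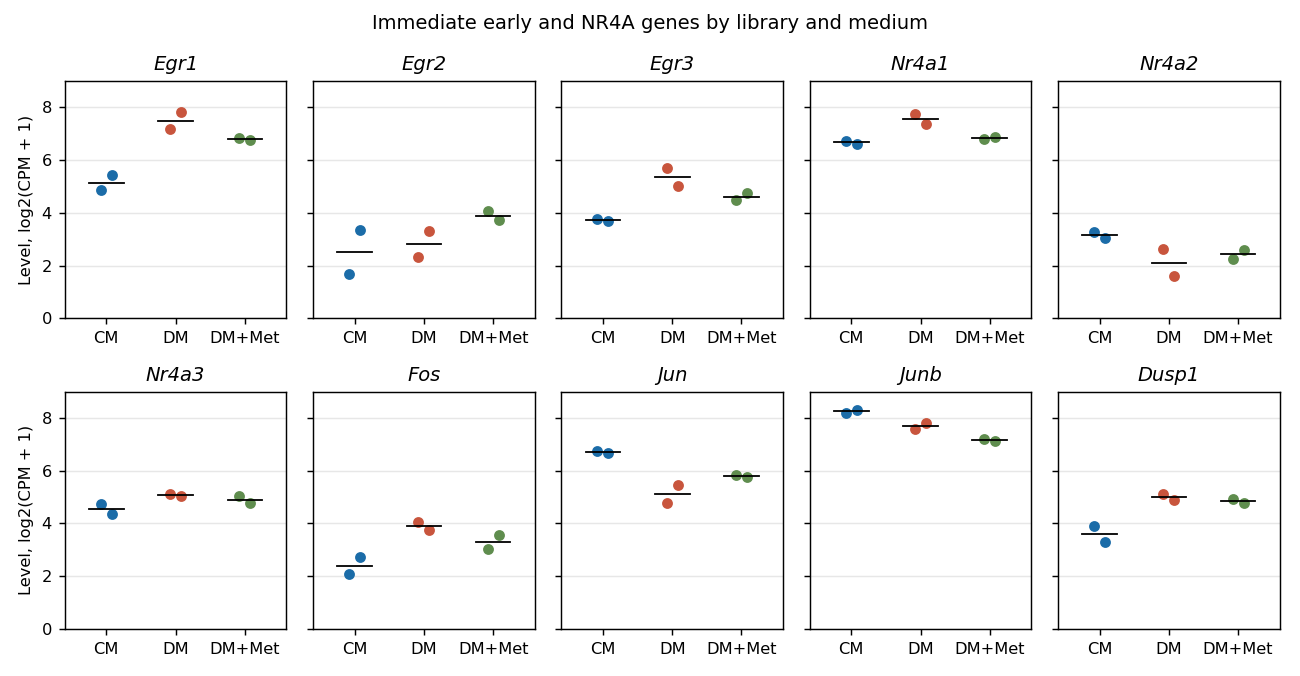
Level of each gene (y axis, log2 of CPM plus 1) in each medium (x axis), with 1 point per library and a line at the mean of the 2 libraries. Egr1 rises from a mean of 5.15 in CM to 7.48 in DM, Jun moves from 6.71 to 5.10, and both are between those values in DM+Met, at 6.80 and 5.81.

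To see what nutrient reduction changed in these genes, DM was compared with CM. Egr1, Egr3, Nr4a1 and Dusp1 were higher in DM and Jun and Junb were lower, at an adjusted p under 0.05 (limma over 12770 tested rows). The 6 of 10 genes called stand beside 16.9% of all tested rows, with 4 higher beside 7.8% and 2 lower beside 9.07%. The genes were chosen with earlier results of these data known, so an excess over those shares is a description only. The 2 libraries of DM lay on one side of both CM libraries for 9 of the 10 genes, all but Egr2, against 54.1% of tested rows. The median log2 fold change was 0.72 over the 10 genes and 0.07 over all tested rows. The 10 genes together took 596 and 623 CPM in CM, 721 and 768 in DM, with 537 and 524 in DM+Met.

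**Figure D2:**
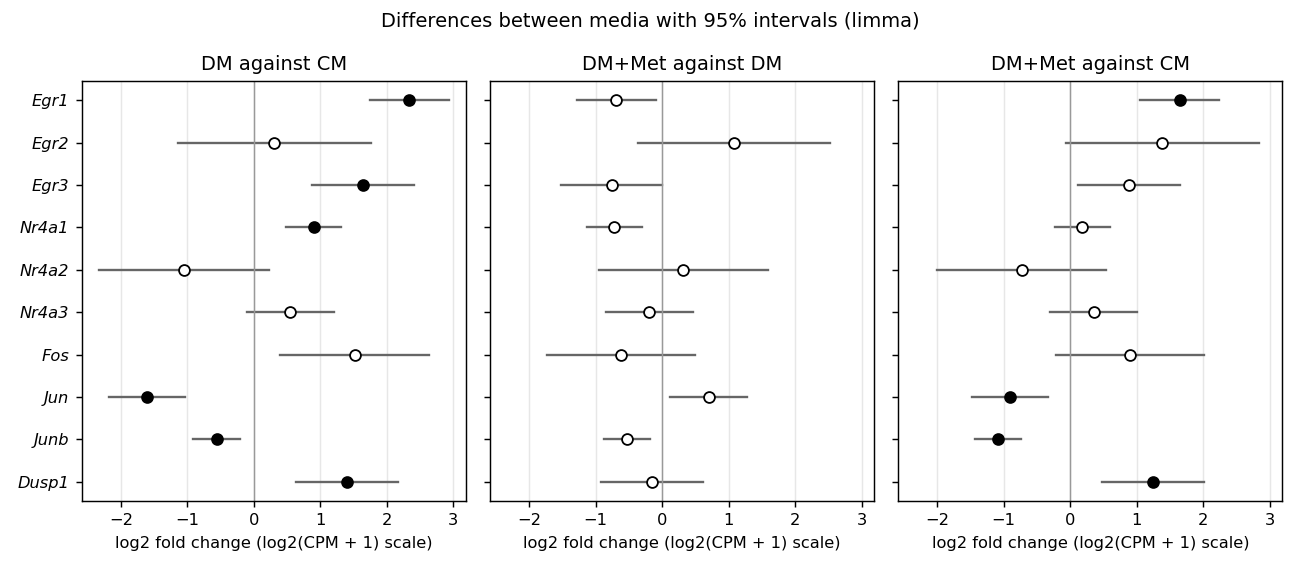
log2 fold change of each gene (x axis, log2 of CPM plus 1 scale) with its 95% interval from limma, in the 3 comparisons of media. Filled points passed an adjusted p of 0.05; DM against CM has 6 filled points, DM+Met against DM has 0 and DM+Met against CM has 4.

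Egr1 showed the greatest difference of the 10 between DM and CM. Its log2 level was 4.86 and 5.44 in CM, 7.16 and 7.81 in DM, with 6.83 and 6.76 in DM+Met, so the 3 media did not overlap. DM was 5.05-fold above CM (log2 2.34, SE 0.27, adjusted p = 7.39e-04 by limma), and the call was kept in all 17 alternatives, with adjusted p up to 0.0415. Egr3 stood at 3.75 and 3.71 in CM, 5.70 and 5.04 in DM, with 4.48 and 4.74 in DM+Met, again without overlap. It was higher in DM than in CM by 1.64 (SE 0.34, adjusted p = 0.0113), and its adjusted p ran from 0.0395 to 0.0720 when 1 library was left out, with the call kept only without DM library 2. Egr2 differed from both relatives. Its level was 1.66 and 3.34 in CM, 2.32 and 3.30 in DM, with 4.06 and 3.71 in DM+Met, from 19 to 187 reads. CM and DM overlapped, and the interval of the DM to CM difference ran from −1.14 to 1.75 around 0.31 (adjusted p = 0.785), which was −0.53 without CM library 1 and −0.18 without DM library 2.

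Among the NR4A receptors, Nr4a1 carried most of the reads. Its log2 level was 6.71 and 6.63 in CM, 7.76 and 7.37 in DM, with 6.82 and 6.89 in DM+Met, with both DM libraries above the other 4. DM exceeded CM by 0.90 (SE 0.19, adjusted p = 0.0109), and with 1 library left out the call was kept only without DM library 2, at adjusted p of 0.0357 to 0.0769 over the 6 libraries. Nr4a3 stood at 4.74 and 4.36 in CM, 5.14 and 5.06 in DM, with 5.03 and 4.79 in DM+Met. Its difference of 0.55 between DM and CM had an interval of −0.11 to 1.20 (adjusted p = 0.228). Nr4a2 had 23 to 75 reads and levels of 3.25 and 3.05 in CM, 2.61 and 1.60 in DM, with 2.25 and 2.59 in DM+Met. Its estimate for DM against CM was of the opposite sign to that of Nr4a1, at −1.05 with an interval of −2.32 to 0.22 (adjusted p = 0.234).

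The AP-1 subunits did not move together. Jun stood at 6.76 and 6.67 in CM, 4.76 and 5.45 in DM, with 5.85 and 5.76 in DM+Met, without overlap between media. Jun fell 3.05-fold in DM (log2 −1.61, SE 0.26, adjusted p = 0.00355), a call lost only without CM library 1 (adjusted p = 0.0584). Junb was 8.19 and 8.33 in CM, 7.60 and 7.80 in DM, with 7.21 and 7.13 in DM+Met. Its difference of −0.56 (SE 0.16, adjusted p = 0.0362) was lost without each of the 6 libraries in turn, at adjusted p of 0.0523 to 0.150. Fos, the dimer partner of the JUN proteins, was 2.07 and 2.73 in CM, 4.07 and 3.76 in DM, with 3.04 and 3.57 in DM+Met, with 28 to 155 reads. Both DM libraries lay above the other 4, and the difference of 1.52 from CM (SE 0.50, interval 0.40 to 2.63) had an adjusted p of 0.0650. That of Fos passed the threshold in 2 of 17 alternatives, those with library totals without Rn45s (0.0496) and with at least 10 reads in every library (0.0344). The annotation places the antisense gene Junos over Jun and the 3′ end of Prdx2 on the other strand over that of Junb. How strand was treated in counting is not given in the sources used here, so reads of these partners cannot be told apart.

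Dusp1 stood at 3.91 and 3.30 in CM, 5.13 and 4.88 in DM, with 4.91 and 4.79 in DM+Met. The 4 libraries from dialyzed medium lay above both from CM. DM exceeded CM by 1.40 (SE 0.34, adjusted p = 0.0228), and the call was kept only without CM library 1 when libraries were left out, at adjusted p of 0.0488 to 0.116. The annotation also places 4 genes over Dusp1, among them the coding gene Ergic1 on the other strand, though none at its 3′ end. As for Jun and Junb, reads within such overlaps cannot be told apart.

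Within each family, the share of reads taken by each gene does not depend on the scaling between libraries. Nr4a1 took 75.2% and 78.4% of NR4A reads in CM, 84.6% and 82.7% in DM, with 76.0% and 78.8% in DM+Met. Nr4a2 took 6.20% and 5.85% in CM, 2.00% and 1.02% in DM, with 2.56% and 3.38% in DM+Met, from low read counts. Egr2 took 5.08% and 14.3% of EGR reads in CM, 2.02% and 3.35% in DM, with 10.4% and 8.35% in DM+Met. The DM libraries were thus the lowest in the share of Egr2 and of Nr4a2. Of the reads of Fos, Jun and Junb, Fos took 0.794% and 1.32% in CM, 6.73% and 4.54% in DM, with 3.41% and 5.32% in DM+Met. Jun took 26.7% and 23.7% in CM, 11.1% and 15.4% in DM, with 26.9% and 26.2% in DM+Met, so its share after methionine overlapped that in CM while its level was below it. The ratio of Egr1 to Jun, chosen after the values were seen, was 0.262 and 0.421 in CM, 5.45 and 5.23 in DM, with 1.99 and 2.01 in DM+Met. This ratio separated the 3 media, and it shows unequal change of the pair only.

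**Figure D3:**
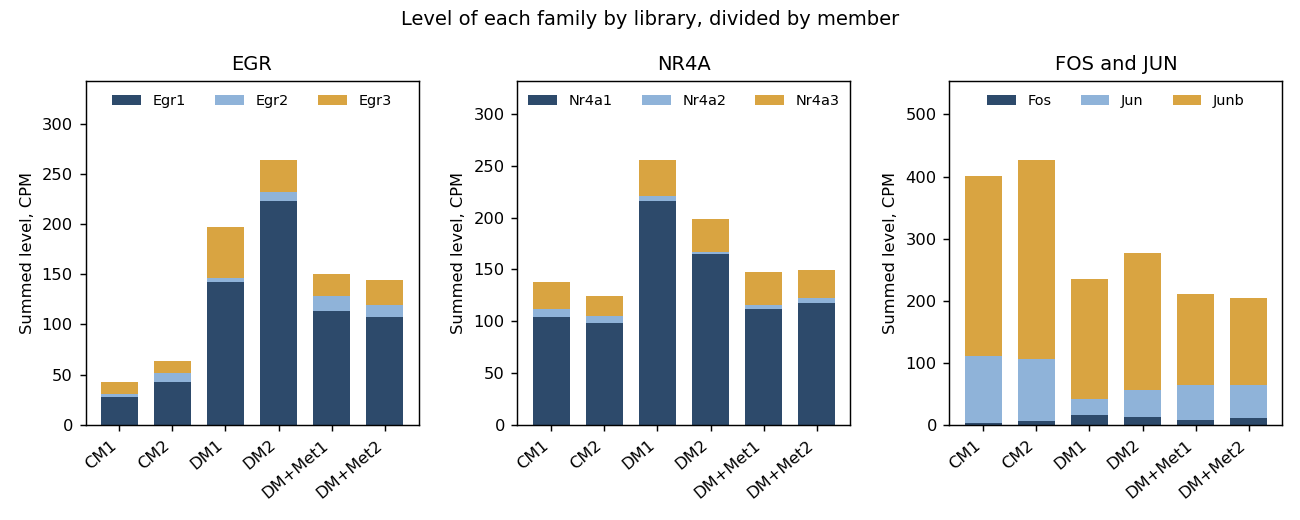
Summed level of each family (y axis, CPM) in each of the 6 libraries (x axis), divided by gene. The EGR sum is 42.6 and 63.5 in CM, 197 and 264 in DM, with 150 and 145 in DM+Met, and the sum of Fos, Jun and Junb is 402 and 426 in CM against 204 to 276 in the other libraries.

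To see what methionine changed in dialyzed medium, DM+Met was compared with DM. None of the 10 genes was called (limma and limma-voom, 0 of 10 at an adjusted p under 0.05), beside 0.0548% of all tested rows in limma. Nr4a1, Jun, Junb and Egr1 had an unadjusted p under 0.05, 4 of 10 beside 9.69% of tested rows. The libraries of the 2 media did not overlap for 8 of 10 genes, all but Nr4a2 and Dusp1, beside 41% of tested rows. The median log2 fold change was −0.36 over the 10 genes and 0.01 over all tested rows. Nr4a1 was lower in DM+Met by 0.71 on the log2 scale (log2 −0.71, interval −1.13 to −0.30, adjusted p = 0.288 by limma). Egr1 differed by −0.69 (−1.28 to −0.10, adjusted p = 0.439), Egr3 by −0.76 (−1.52 to 0.004, adjusted p = 0.517) and Junb by −0.53 (−0.87 to −0.18, adjusted p = 0.348). Estimates above 0 were those of Jun at 0.70 (0.13 to 1.28, adjusted p = 0.421), Egr2 at 1.08 (−0.37 to 2.53, adjusted p = 0.641) and Nr4a2 at 0.32 (−0.95 to 1.59). The interval of Fos ran from −1.73 to 0.50 around −0.61, that of Nr4a3 from −0.84 to 0.46 around −0.19, and that of Dusp1 from −0.92 to 0.62 around −0.15. The intervals of Egr1, Egr2, Egr3, Nr4a1, Nr4a2, Jun and Fos reach beyond a change of 1 log2 unit. Scaling by library totals put the median of all tested rows at 0.34, and relative to that median Nr4a1 stood at −0.69, Egr1 at −0.66 and Jun at 0.72. Without the median subtracted, Nr4a3 and Dusp1 turned positive there, at 0.16 and 0.20.

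To see what still differed from CM after methionine, DM+Met was compared with CM. This comparison shares its CM libraries with the first and its DM+Met libraries with the second, so its values are given side by side and not as separate evidence. Egr1 and Dusp1 were higher and Jun and Junb lower, 4 of 10 genes beside 15.3% of tested rows, with 2 higher beside 6.92% and 2 lower beside 8.36%. The libraries did not overlap for any of the 10 genes, beside 60.9% of tested rows. Egr1 exceeded CM by 1.65 in DM+Met and by 2.34 in DM (adjusted p = 0.00323 in DM+Met), and Dusp1 by 1.25 and 1.40 (adjusted p = 0.0373). Jun was below CM by −0.90 in DM+Met and −1.61 in DM (adjusted p = 0.0426), and Junb by −1.09 and −0.56 (adjusted p = 0.00169). Nr4a1 stood 0.18 above CM in DM+Met with an interval of −0.23 to 0.60 (adjusted p = 0.553), against 0.90 in DM. Egr3 stood 0.88 above (0.12 to 1.64, adjusted p = 0.113), Fos 0.90 (−0.22 to 2.02), Nr4a3 0.36 (−0.30 to 1.01) and Nr4a2 −0.73 (−2.00 to 0.54). Egr2 was 1.39 above CM (−0.06 to 2.83, adjusted p = 0.184) and had its highest level of the 3 media here. With library totals, where the median of all tested rows was 0.41, Nr4a1 stood at 0.58 (adjusted p = 0.0568), Jun lost its call (−0.51, adjusted p = 0.178) and Egr3 gained one (1.26, adjusted p = 0.0271), which made 3 higher and 1 lower. Without DM+Met library 1, and without DM+Met library 2, 0 of the 10 genes were called. The call for Egr1 was also lost without CM library 1 (1.36, adjusted p = 0.0573), and that for Jun without either CM library (adjusted p = 0.191 and 0.140). Dusp1 was lost without each of the 6 libraries in turn, at adjusted p of 0.0545 to 0.275.

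Around these 10 genes, 116 genes of 7 lists were followed, of which 113 were tested. In DM against CM 30 of them were called (26.5%, 20 higher and 10 lower, beside 16.9% of tested rows), in DM+Met against DM 0, and in DM+Met against CM 34 (30.1%, beside 15.3%). The lists too were chosen with earlier results of these data known. Like Jun and Junb and unlike Fos, the other AP-1 subunits called in DM were lower. Of 12 tested, 0 were called higher, beside 7.8% of tested rows, and 4 were called lower, beside 9.07%. They included Fosl2, another FOS relative, at 7.68 and 7.77 in CM and 6.41 and 6.40 in DM (−1.32, adjusted p = 0.00138), and Jdp2, a repressor of AP-1 targets (−1.86, adjusted p = 0.0355). Over all 7 FOS and JUN genes, Jund took 28.6% and 37.5% of the reads in CM, 53.6% and 45.8% in DM, with 46.8% and 53.9% in DM+Met. Its share was higher in each of the 4 libraries from dialyzed medium than in either from CM, and that of Fosl2 lower, at 12.2% to 14.0% against 23.9% and 21.0%. The level of Jund itself was not called in DM against CM (0.14, adjusted p = 0.722) or in DM+Met against CM (−0.09, adjusted p = 0.830).

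Of the factors that act upstream of these genes and the MAP kinase phosphatases, 9 of 53 were called in DM against CM (17%). With both directions pooled, this is near the 16.9% of all tested rows. Split by direction, every call among these factors but that of Map2k6 was higher in DM. Of all tested rows, 7.8% were called higher and 9.07% lower. Of 8 tested EGR partners and serum response factors, Elk3 (1.91, adjusted p = 0.00435) and Mkl1 (0.98, adjusted p = 0.0383) were called higher in DM and 0 lower. Elk3 encodes an ETS factor that joins serum response factor on DNA, and Mkl1 is a coactivator of that factor. Of 20 tested MAP kinase cascade genes, Araf (1.23) and Rasgrp1 (0.70) were called higher and Map2k6 lower. Map2k6 went from 4.46 and 4.74 in CM to 0.49 and 2.00 in DM (−3.36, adjusted p = 0.00856). Rasgrp1 activates RAS in T cells, ARAF is a RAF kinase and Map2k6 encodes a kinase that activates p38. Of 16 calcineurin and NFAT genes 3 were called higher and 0 lower. Those called included Orai1 (1.02), the calcium channel of the plasma membrane, and Ppp3ca (0.96), a catalytic subunit of calcineurin. In DM+Met against CM, 1 of the 16 was called higher and 2 lower, beside 6.92% and 8.36% of tested rows. Of 9 other MAP kinase phosphatases, 1 was called higher and 0 lower. The 1 was Dusp2, which encodes a nuclear relative of Dusp1 (1.31, adjusted p = 0.00881). Estimates that were not called included Dusp6 at 1.21 (adjusted p = 0.0668), Dusp8 at −1.64 (adjusted p = 0.0711) and Dusp16 at −1.635 (adjusted p = 0.0646).

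Of 30 other immediate early genes, 6 were higher in DM, beside 7.8% of tested rows, and 3 were lower, which is near the 9.07% of tested rows. Klf2, a factor of T cell quiescence and trafficking, stood at 6.69 and 6.02 in CM and 9.16 and 8.61 in DM (2.53, adjusted p = 3.88e-04), and the kinase gene Sgk1 also rose (1.77, adjusted p = 0.0168). Ier3 was 8.05 and 8.31 in CM and 5.28 and 4.82 in DM (−3.13), and Ier5l fell too (−3.04), down to 0.34 in DM library 2, which is at the level of 3 reads. Among 18 T cell genes associated with EGR and NR4A factors, 6 were called higher, beside 7.8% of tested rows. In the same list 2 were called lower, which is near the 9.07% of tested rows. Tox, a factor of T cell exhaustion, was 1.94 and 2.52 in CM and 5.67 and 5.68 in DM (3.44), and Nrn1, a gene of anergic and regulatory T cells, rose by 3.22. Lag3, an inhibitory receptor, fell by 2.10 on the log2 scale and Ndrg1, a gene of T cell anergy, fell by 1.45.

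**Figure D4:**
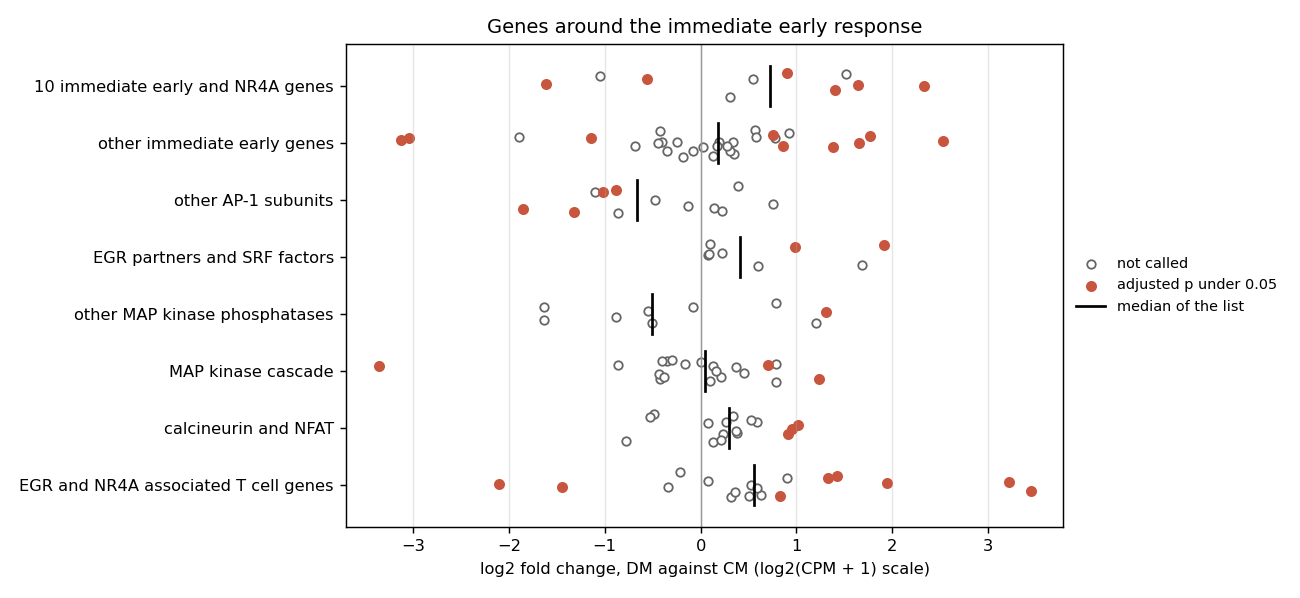
log2 fold change of DM against CM (x axis, log2 of CPM plus 1 scale) for the 10 genes and for the tested genes of 7 lists around them, with 1 point per gene, filled where adjusted p was under 0.05, and a line at the median of each list. The other AP-1 subunits have a median of −0.67 with 4 called lower, and the 10 genes have a median of 0.72 with calls on both sides of 0.

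AU-rich elements in the 3′ UTR mark many short-lived immediate early mRNAs for decay, so they were counted in the GENCODE models. The 10 genes held a median of 2.94 AUUUA pentamers per kb of 3′ UTR, against 1.32 over 11497 tested genes. Dusp1 at 5.77 per kb, Nr4a1 at 5.49 and Fos at 4.89 had more than 95.7%, 95.1% and 93.6% of tested genes. Egr1, with 1.64 per kb, and Nr4a3, with 1.62, had the fewest of the 10. The nonamer UUAUUUAUU was found in 2 of the 10 genes, or 20%, against 8.32% of tested genes. One site of each is shown with 10 or more flanking bases, the nonamer in capitals, since these are the elements known to be bound by decay factors.
Fos: uguuuucaauUUAUUUAUUaagauggauuc
Dusp1: gagcugguccUUAUUUAUUuaacacccccc
In Dusp1 the nonamer was found at 2 positions. A relation between these counts and the changes between media was not tested, and decay was not measured.

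The profile of each gene over the 6 libraries was compared with those of 7784 or 7785 other tested genes with a mean of at least 10 CPM, as a root mean square difference of log2 levels after each gene's mean was subtracted. With so many candidates and 6 libraries, close profiles can be found for most genes. Nearest to Fos were Zfp961 (0.10) and Dusp2 (0.14), and nearest to Nr4a1 were Map2k5 (0.09) and Bet1l (0.10). Tmem71 (0.19) and Pdzd8 (0.20) came closest to Egr1, Rhbdd2 (0.12) and Atp6v0a1 (0.15) to Egr3, and Vti1a (0.16) and Cd9 (0.22) to Egr2. Plod3 (0.10) and Snhg5 (0.11) were nearest to Jun and Pik3cd (0.06) and Sec61a1 (0.07) to Junb. For Dusp1 these were Parp4 (0.12) and A830080D01Rik (0.12), for Nr4a2 Lsm7 (0.07) and Hnrnpa1 (0.09), and for Nr4a3 Inip (0.06) and Exoc5 (0.08). Among the 10 genes themselves, Fos and Egr3 were closest, at 0.25, then Nr4a1 and Nr4a3 at 0.27. No other of the 10 came within 0.86 of Egr2.

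Markers of the cells were read from the same libraries. The 9 T cell markers summed to 2169 and 2346 CPM in CM and to 2486 to 2848 in the other libraries. Of these, 2 were called higher in DM, Cd3g and Cd2, beside 7.8% of tested rows. Cd28 was called lower, 1 of 9, which is near the 9.07% of tested rows. In DM+Met against CM, 1 of 9 was called higher, Cd2, beside 6.92% of tested rows. Markers of CD8 T and NK cells summed to 112 and 131 CPM in CM and to 40.6 to 58.0 in the other libraries. Of 6 tested, Cd8a and Nkg7 were called lower in DM, beside 9.07% of tested rows. The estimates of 3 were above 0. Among these, Klrb1c was at 0 in both CM libraries and at 1.45 and 1.56 in DM (adjusted p = 0.0863), and Klre1 was at 0 in 3 libraries. In DM+Met against CM, Klrb1c was called higher (2.10, adjusted p = 0.0294 by limma), beside 6.92% of tested rows. Cd8a and Nkg7 were called lower there, beside 8.36%. The 11 myeloid markers summed to 54.9 to 67.6 in CM and DM and 76.0 and 116 in DM+Met. Itgam and Adgre1 were at 0 in CM library 2 and DM library 1. Of 10 tested, 1 was called higher in DM, Lyz2, which is near the 7.8% of tested rows. The 7 B cell markers summed to 58.5 to 103, with Pax5 at 0 throughout. Of 6 tested, 0 were called in DM, beside 16.9% of tested rows. In DM+Met against CM, 1 was called lower, Cd22 (−2.08, adjusted p = 0.0273 by limma), beside 8.36% of tested rows. Heat shock genes, which also respond to the handling of cells, summed to 2116 and 1995 CPM in CM, 740 and 845 in DM, with 919 and 850 in DM+Met. Of 8 tested, 6 were called lower in DM, beside 9.07% of tested rows. In DM these genes were lower where Jun and Junb were lower and Egr1, Egr3, Nr4a1 and Dusp1 were higher. In DM+Met 6 of 8 were also called lower than in CM, beside 8.36% of tested rows. Egr1 and Dusp1 were called higher there and Jun and Junb lower, as in DM. Nr4a1 and Egr3 were not called there (adjusted p = 0.553 and 0.113 by limma). The part of these cells and genes in the results was not tested.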

How the data were processed

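RNA was measured in 6 libraries of activated mouse CD4 T cells, 2 per medium, made with a 3′-end kit (Lexogen QuantSeq). The deposited values are log2 of TMM-scaled CPM plus 1, made by the authors and given to 3 decimals for 23282 rows; Bowtie2, bedtools and mm10 are named in the submitters' processing notes without a role, and the annotation and strand setting are not given in the sources used here. The log base and the added 1 follow from equal steps of the values, from which reads were recovered. Of recovered values up to 300 reads, 99.776% or more per library were whole to within 0.1 read. Files of 1 medium differed beyond sampling noise (chi-square per degree of freedom 18.2 to 35.9). The floor of 3 reads covers counting error alone, because the reads carry no molecular identifiers.

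Rows with at least 0.946 CPM (10 reads at the median depth) in at least 2 libraries and 15 reads in total were tested, 12770 in all, including all 10 genes. A linear model on the deposited log2 values (limma 3.58.1, R 4.3.3, lmFit, then eBayes with a trend on the mean level) took the 3 media in 1 fit without covariates, with two-sided p-values adjusted by Benjamini-Hochberg over all tested rows and a threshold of 0.05. Every adjusted p for a gene comes from limma. The model was tested on simulated data in which all genes had the same relative spread between libraries. The spread between the files of each medium was not copied, so that test does not show how well changes of these genes are called. The tests used deposited values and no count model.

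The 10 genes and the lists were chosen with earlier results of these data known. All 10 genes were named, and from each of 7 pathway lists the called genes that rose most and fell most in DM against CM, at most 2 each way, and any called in DM+Met against DM. For each of the 10, the 2 genes with the closest profile were also named. Lists of T, B, CD8 T and NK cell, myeloid and heat shock genes were summed as CPM. Promoter windows came from RefSeq (GRCm38.p6), and gene positions and 3′ UTRs from GENCODE on GRCm38, the same build as mm10. The 17 alternatives changed the scaling, filter, pseudocount, test, variance prior, libraries fitted or replicate block, or left out 1 library.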

Additional observations from a re-analysis of the deposited data

How the results depend on the processing

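Of the single-gene estimates under the 17 alternatives, 444 kept their direction and side of the threshold, 58 lost a call, 3 gained one and 5 changed sign. The 444 include genes not called in the main fit. The 58 come only from the 6 genes called in DM against CM and the 4 called in DM+Met against CM. The changes of sign were Nr4a3 and Dusp1 in DM+Met against DM with library totals (0.16 and 0.20), Egr2 in DM against CM with 1 library left out (−0.53 to 1.14), and Nr4a2 in DM+Met against DM with 1 library left out (−0.19 to 0.82). In DM against CM, the 6 of the 10 genes called became 2 with the 2 media alone in the fit, and 2 to 4 with 1 library left out, and the 30 genes of the pathway lists became 17 without a trend, 15 with the 2 media alone and 10 to 15 with 1 library left out. In DM+Met against CM, the 4 called became 2 without a filter, 0 without a trend and 0 to 3 with 1 library left out, and the 34 list genes became 17, 11 and 6 to 25. In DM+Met against DM, the count of the 10 genes stayed at 0, and the 0 list genes became 2 with library totals, 2 with at least 10 reads in every library and 2 with limma-voom. Leaving out a library also leaves fewer degrees of freedom: the calls over all rows in DM against CM then fell from 2154 to 541 to 1061. The median of all tested rows was 0.07 in DM against CM, 0.01 in DM+Met against DM and 0.06 in DM+Met against CM, and with library totals 0.09, 0.34 and 0.41. With the replicate block, 5 of the 10 genes were called in DM against CM (Junb was lost, adjusted p = 0.0562), 0 in DM+Met against DM and 4 in DM+Met against CM. The deviations of libraries with the same number correlated at −0.030 to 0.005, so no shared deviation by number was seen. Whether the numbers pair the samples by origin is not in the labels, and these correlations cannot decide it. With 2 libraries per medium, and 19 to 187 reads for Egr2 and 23 to 75 for Nr4a2, differences of these genes are known least well.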
